A study of Mus musculus with 2 samples.

Results

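The genes described here are the 10 that encode the TGF-beta ligands (Tgfb1, Tgfb2, Tgfb3), their receptors (Tgfbr1, Tgfbr2, Tgfbr3) and the latent TGF-beta binding proteins (Ltbp1, Ltbp2, Ltbp3, Ltbp4) of the mouse periosteum. They were taken by symbol from the 31253 genes listed for both libraries, and all 10 had unique molecular identifiers (UMIs, tags that count captured RNA molecules) in both. The study sorted Prx1 positive cells from the periosteum of femurs and tibias of 8-week mice and sequenced them as single cells on the BD Rhapsody system. A control library came from Prx1 Cre; Ai9/+ mice, in which Cre under the Prx1 (Prrx1) limb mesenchyme enhancer switches on the red Ai9 reporter. A second library came from mice with those same alleles that also carried Piezo1 fl/fl, the floxed form of a mechanosensitive channel gene. Cre is meant to recombine the floxed gene in the cells that express Cre. This second library is called the fl/fl library below. There was 1 library per genotype, and the number of mice behind each is not given in the labels. Differences between libraries therefore have no replicate check, and genotype and library cannot be told apart. All intervals below are 95% intervals that cover counting error only.

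TGF-beta is made as a latent precursor. The mature dimer stays wrapped in its own propeptide, which is usually bound by a latent TGF-beta binding protein and tethered to fibrillin microfibrils and fibronectin until integrins, proteases or other cues free the ligand. Free TGF-beta binds the type II receptor Tgfbr2, which recruits and phosphorylates the type I receptor Tgfbr1 so that SMAD2 and SMAD3 are activated, while betaglycan (Tgfbr3) presents ligand, above all TGF-beta2, to the type II receptor. Bone matrix is a large store of latent TGF-beta, and TGF-beta signaling is known to act on osteoblast and tendon lineages.

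The control library held 6118 cell barcodes with 28030299 UMIs, and the fl/fl library 7469 barcodes with 32337308 UMIs. After filters on genes, mitochondrial UMIs and doublets, 4418 and 5084 cells were kept, with median depths of 4812.5 and 4593 UMIs. The libraries shared 50 barcodes. Cells were clustered in each library without the members or the other TGF-beta pathway genes, and clusters were named from markers. SSPC-1-like cells (798 control, 873 fl/fl) carried 6 of 7 markers, Col8a1 and Egfl6 among them, of the fibrous-layer skeletal stem and progenitor population that the study calls SSPC-1. The control cluster was led by Egfl6, Col8a1 and Gpha2, and the fl/fl cluster by Chad, Gpha2 and Igfbp3. When each cell was named from its own marker UMIs, 343 control and 301 fl/fl cells of these clusters were SSPC-1-like. Another 402 and 484 had no name, and 17 and 65 were tendon-like. The name SSPC-1-like is thus one of clusters and not of each cell. SSPC-2-like cells (742 and 559) carried Tnn, Postn and osteogenic markers of the cambium-layer population, with less Tnn and Postn in 173 fl/fl cells described below. Tendon-like (216 and 354), fibroblast-like (1632 and 1819), mural-like (293 and 364), endothelial-like (174 and 141), lining-like (56 and 124) and macrophage-like cells (415 and 291) made up the other 6 types with at least 50 cells in both libraries. The macrophage-like and endothelial-like cells were present although the sort was for Prx1 positive cells. Levels are in CPM, the UMIs of a gene summed over the cells of a type per 1e+06 UMIs of that type. Summed macrophage markers were 14433 CPM in control and 18899 in fl/fl macrophage-like cells, and at most 148 in the other 7 types. Summed endothelial markers were 8432 and 7005 CPM in endothelial-like cells and at most 84.3 elsewhere. The endothelial-like cells also had 6393 and 5943 CPM of the 6 Pi16 fibroblast markers, of which Ly6c1 made 6294 and 5807, while Pi16 itself had 1 and 4 UMIs. A mature osteoblast-like cluster was found in the control library alone (59 cells), and the SSPC-2-like cluster of the fl/fl library held Bglap and Ibsp among its leading genes. Each UMI counts a molecule tagged at its 3′ end, so a level is one of molecules and is not scaled by gene length.

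All 10 members matched a gene of the GENCODE vM21 annotation (GRCm38) by identifier. The genes lie apart on 8 chromosomes: Tgfb1 and Ltbp4 are on chr7, and Tgfb3 and Ltbp2 on chr12. Whether counting used strand is not given in the sources used here, so reads where a member overlaps a gene on the other strand cannot be assigned with certainty.

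The upstream sequences of Tgfb2 and Ltbp1 are shown because these are the ligand and the binding protein whose levels were furthest apart between these stem and progenitor classes in the control library. RefSeq windows (GRCm38.p6) were held for 8 of the 10 members; Tgfb3 and Tgfbr3 had none. Each line gives the 250 bases before the annotated start, 5′ to 3′ on the gene's strand, with Tgfb2 at chr1:186705990-186706239 (minus strand) and Ltbp1 at chr17:75005279-75005528 (plus strand). Capitals mark TATAAA, the TATA box letters, in Tgfb2, and TGACGTCA, the full cyclic AMP response element letters, in Ltbp1.
Tgfb2: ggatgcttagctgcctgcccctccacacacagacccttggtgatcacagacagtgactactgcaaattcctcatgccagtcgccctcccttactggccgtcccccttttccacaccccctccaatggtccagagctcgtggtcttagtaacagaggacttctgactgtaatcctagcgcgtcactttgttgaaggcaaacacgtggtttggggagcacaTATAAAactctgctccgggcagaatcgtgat
Ltbp1: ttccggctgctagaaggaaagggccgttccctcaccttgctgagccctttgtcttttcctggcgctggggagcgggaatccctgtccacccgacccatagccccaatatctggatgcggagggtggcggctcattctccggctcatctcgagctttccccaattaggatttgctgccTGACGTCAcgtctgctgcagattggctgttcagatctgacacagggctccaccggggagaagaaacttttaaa
Both strands were searched in all 32851 windows of the same length. TATAAA was in 12.4% of them and, among the members, in Tgfb2 alone, where it began 31 bases before the start. TGACGTCA was in 1.55% of the windows and, among the members, in the Ltbp1 window shown here, 73 bases before the start; a second Ltbp1 window lacked it. Of 3 further motifs, CAGACA was in 17.1% of all windows and in those of Ltbp1, Tgfb2 and Tgfbr1, and TGANTCA (6.75%) and GGAATG (12.6%) were in none of the members. These letters describe the windows only. A 3′ tag does not show which start a transcript used.

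**Figure D1:**
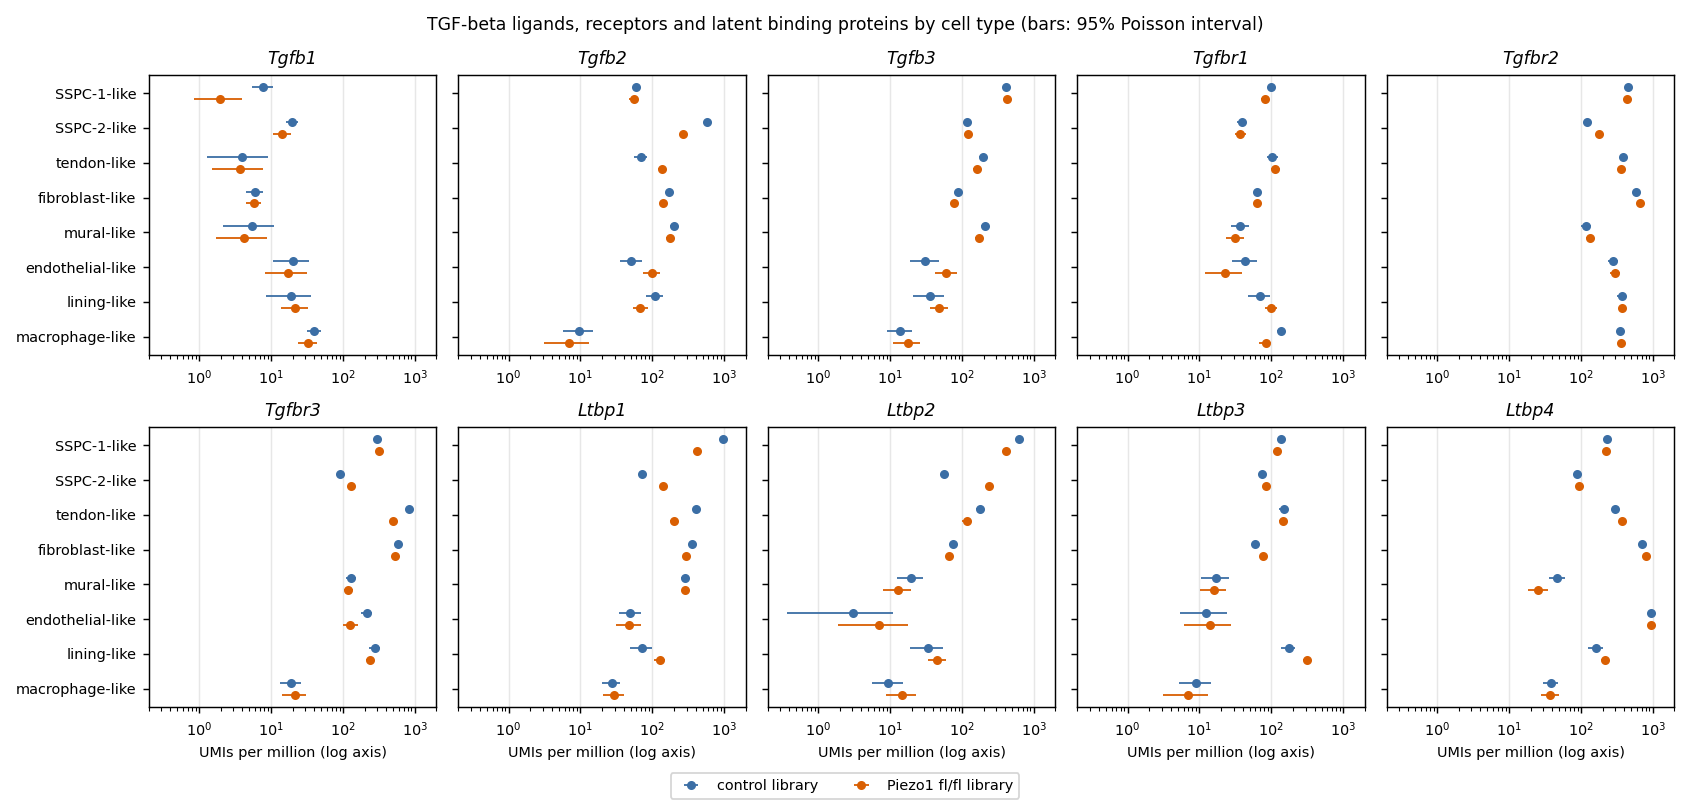
CPM (log axis) of each of the 10 genes in the 8 cell types with at least 50 cells in both libraries, with points for the control library (blue) and the Piezo1 fl/fl library (orange) and bars for the 95% Poisson interval. Among these types, Tgfb2 was highest in SSPC-2-like cells, Tgfb3, Ltbp1 and Ltbp2 in SSPC-1-like cells and Ltbp4 in endothelial-like cells, in both libraries. For Ltbp1, Ltbp2 and Ltbp4, some clusters within another type were higher in the fl/fl library, as the text describes.

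The 3 ligands had different main sources. Tgfb3 was highest in SSPC-1-like cells, at 416 CPM (1930 UMIs) in the control library and 420 (1692 UMIs) in the fl/fl library. Mural-like cells followed at 209 and 173, tendon-like cells at 199 and 162, and SSPC-2-like cells at 117 and 122. The SSPC-1-like level was above that of the mural-like cells beyond counting error in both libraries, whereas mural-like and tendon-like cells did not differ beyond it in either. A Tgfb3 UMI was seen in 76.3% of control SSPC-1-like cells and in 5.54% of macrophage-like cells, whose median depths were 5217 and 3767 UMIs. With each cell thinned to 2500 UMIs the shares were 60.3% of 721 cells and 3.12% of 320 cells. SSPC-1-like cells held 48.5% of all Tgfb3 UMIs of the control library and 43.6% of those of the fl/fl library, from 18.2% and 14.1% of all UMIs.

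Tgfb2 was instead highest in SSPC-2-like cells in both libraries, at 578 CPM in the control library (3055 UMIs) and 266 in the fl/fl library (906 UMIs). Mural-like cells (198 and 174) and fibroblast-like cells (170.3 and 139) came next, and SSPC-1-like cells stood at 59.9 and 54.8. Macrophage-like cells had 9.54 and 6.87 CPM, the lowest of the 8 types. SSPC-2-like cells held 56.8% of the Tgfb2 UMIs of the control library and 25.3% of those of the fl/fl library. They made 20.7% and 11.9% of all UMIs. In the fl/fl library fibroblast-like cells held 43.0% of the Tgfb2 UMIs, from 38.8% of all UMIs. The control cells with a Tgfb2 UMI were 74.5% of the SSPC-2-like and 22.9% of the SSPC-1-like cells, and 55.8% and 11.4% after thinning. The mature osteoblast-like cells of the control library, which express Dmp1 and Bglap, had 16.6 CPM (interval 7.61 to 31.6, 9 UMIs), below all of the 8 types but the macrophage-like cells.

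Tgfb1 was sparse throughout, with 320 UMIs among all kept control cells and 274 in the fl/fl library. Among the 8 types its highest level was in macrophage-like cells, at 39.8 CPM (75 UMIs) and 32.8 (43 UMIs). In the control library this was above the endothelial-like (20.1), SSPC-2-like (19.9) and lining-like cells (18.8), which did not differ among themselves beyond counting error. In the fl/fl library macrophage-like cells did not differ from the next type, lining-like cells at 21.8, beyond counting error. SSPC-1-like cells had 7.75 and 1.98 CPM, from 36 and 8 UMIs. An unnamed fl/fl cluster of 144 cells led by immunoglobulin, haemoglobin and antigen presentation genes had 37.0 (25.6 to 51.7, 34 UMIs), and the 27 chondrocyte-like fl/fl cells had 44.6 (22.3 to 79.9, 11 UMIs), both with intervals that hold the fl/fl macrophage-like value.

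**Figure D2:**
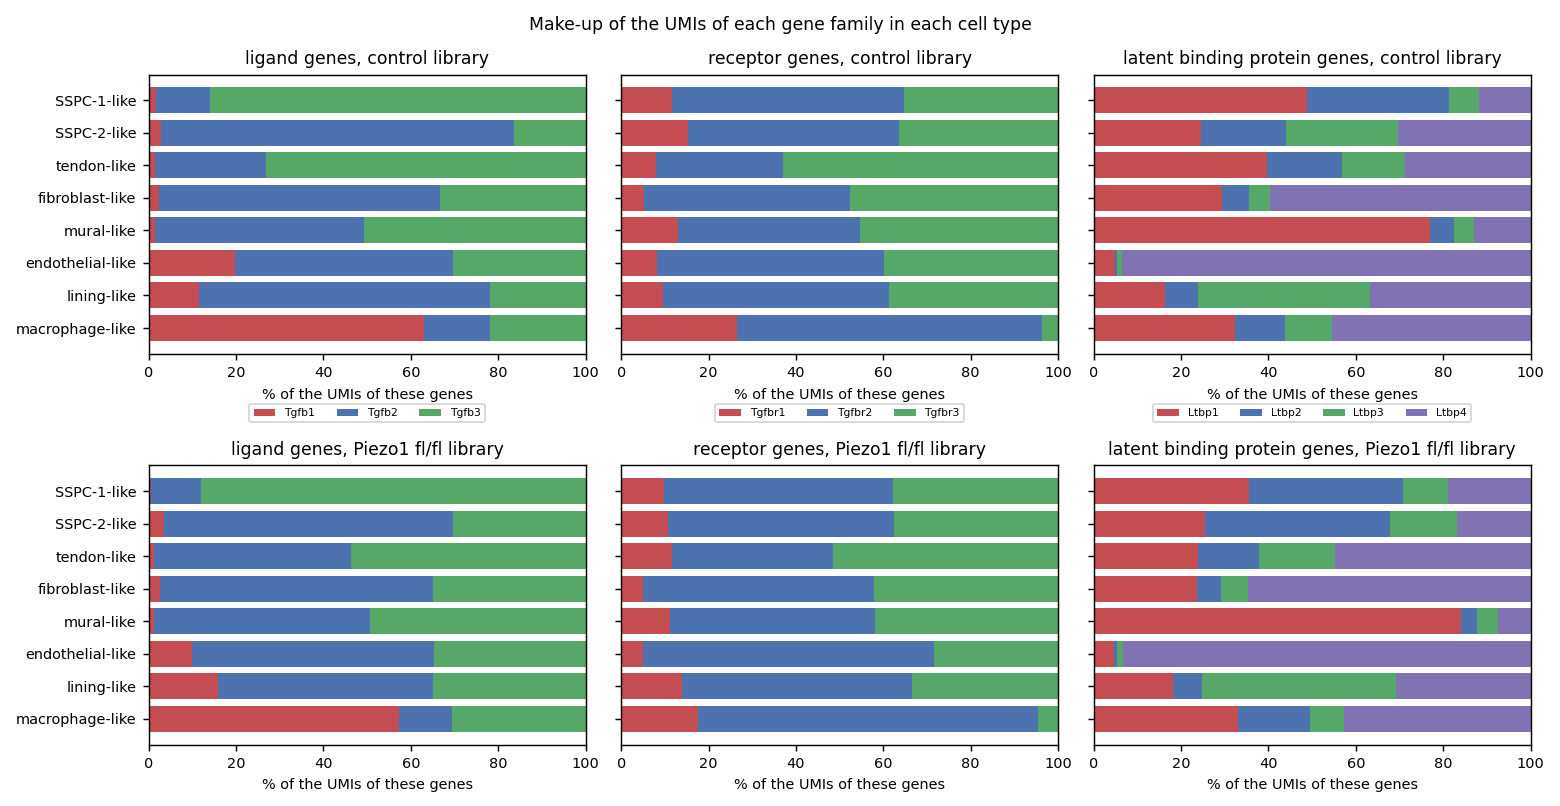
Share of the UMIs of the ligand, receptor and latent binding protein genes that each member made up (0 to 100%) in each of the 8 cell types, with the control library above and the Piezo1 fl/fl library below. Tgfb3 made up 86.0% of the ligand UMIs of control SSPC-1-like cells, and Tgfb2 80.8% of those of control SSPC-2-like cells.

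The make-up of the ligand UMIs differed most between the stem and progenitor classes. Tgfb3 made up 86.0% of the ligand UMIs of control SSPC-1-like cells (exact binomial interval 84.5 to 87.4) and 88.1% in the fl/fl library. Among SSPC-2-like cells Tgfb3 was 16.4% (15.3 to 17.6) in the control library and 30.2% (27.8 to 32.8) in the fl/fl library, and Tgfb2 made up 80.8% and 66.2%. Within the fl/fl class the share was uneven: Tgfb3 made up 17.6% (15.4 to 20.1) of the ligand UMIs in a cluster of 386 cells and 73.5% (68.2 to 78.3) in a cluster of 173 cells that is described below. Mural-like cells had near equal parts, with Tgfb2 at 48.0% and 49.5%. Macrophage-like cells were the only one of the 8 types in which Tgfb1 led, with 63.0% and 57.3% of few ligand UMIs (63.1 and 57.3 ligand CPM in all). Summed over the 3 ligands, control SSPC-2-like cells had 715 CPM (693 to 738), above SSPC-1-like cells at 483 (464 to 504). In the fl/fl library the order of these pooled sums was turned, with 402 (381 to 424) in SSPC-2-like and 476 (455 to 498) in SSPC-1-like cells. The SSPC-2-like sums pool unlike clusters in both libraries. Tgfb2, their main part, was at 647 and 297 CPM in control clusters of 553 and 187 cells. In the fl/fl clusters of 386 and 173 cells it was at 331 and 80.5. The part of this mixture in the order was not tested.

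Receptor levels were low in SSPC-2-like cells. Tgfbr2, the type II receptor, was highest in fibroblast-like cells, at 589 CPM in the control and 666 in the fl/fl library, and next in SSPC-1-like cells at 456 and 442. SSPC-2-like cells had 122 and 179, and mural-like cells 118 and 134. Macrophage-like cells had 353 and 367 and endothelial-like cells 280 and 298, so both non-skeletal types carried more of this transcript than SSPC-2-like cells. Tgfbr1, the type I receptor, was highest among the 8 types in macrophage-like cells in the control library (134) and in tendon-like cells in the fl/fl library (114), where tendon-like, lining-like and macrophage-like cells did not differ from their neighbours in the order beyond counting error. The fl/fl macrophage-like level (83.3) depended on the naming: when macrophage-like cells were taken by their own marker UMIs, a step added after the values were seen, the level was 120.3 (106 to 137), with 106 of those 399 cells from the unnamed 144-cell cluster. The control level was then 124. SSPC-2-like cells had 38.6 and 37.0.

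Betaglycan (Tgfbr3) was highest in tendon-like cells in the control library, at 823 CPM, above fibroblast-like cells at 594. The fl/fl library had 533 in fibroblast-like and 499 in tendon-like cells, which did not differ beyond counting error. SSPC-1-like cells stood at 302 and 317, and SSPC-2-like cells at 91.4 and 131. Macrophage-like cells had 19.1 and 21.4 CPM, and Tgfbr3 made up 3.77% and 4.53% of their receptor UMIs against 63.0% and 51.5% in tendon-like cells.

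Each latent binding protein had its own pattern. Ltbp1, which binds the latent complex and anchors it to matrix, was highest among the 8 types in SSPC-1-like cells, at 948 CPM (4400 UMIs) in the control library and 416 (1676 UMIs) in the fl/fl library, where an unnamed cluster of 300 cells outside the 8 types had 526 (495 to 559). The Pi16 part of the fl/fl fibroblast-like cells, described below, also had a higher level than the fl/fl SSPC-1-like cells. Mural-like cells had 280.4 and 285, and there Ltbp1 made up 77.1% and 84.0% of the binding protein UMIs. SSPC-2-like cells had 72.1 and 142. Ltbp2, a microfibril protein of the same family that does not bind latent TGF-beta, was highest in SSPC-1-like cells as well, at 629 and 411. Within the fl/fl SSPC-2-like cells, the 173-cell cluster described below had a higher level of Ltbp2, at 512 (465 to 561). SSPC-1-like cells held 69.0% of all Ltbp2 UMIs of the control library and 45.9% of those of the fl/fl library. They made 18.2% and 14.1% of all UMIs. SSPC-2-like cells had 57.3 and 239, and endothelial-like cells 3.09 and 6.97 from 2 and 4 UMIs. No Ltbp2 UMI was counted in the 33 perineurial-like cells of the control library, where 3 UMIs would be 17.5 CPM.

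Ltbp3 was highest in the lining-like cells, which carry Prg4 (lubricin) and Htra4, at 174 CPM (83 UMIs) in the control and 310.3 (327 UMIs) in the fl/fl library. In the control library this did not differ from tendon-like cells (148) beyond counting error, and in the fl/fl library it exceeded them (145). SSPC-1-like cells had 134 and 119.8 and SSPC-2-like cells 75.1 and 85.2, the smallest ratio between these types of any member. Ltbp4, an elastic fibre protein that pairs mainly with latent TGF-beta1, was highest in endothelial-like cells at 941 and 944. It made up 93.5% and 93.3% of their binding protein UMIs. Fibroblast-like cells followed at 714 and 793. They held 69.4% and 72.3% of all Ltbp4 UMIs, from 36.4% and 38.8% of all UMIs. Their Gdf10 part, described below, had more Ltbp4 than endothelial-like cells in the fl/fl library and a similar level in the control library. Mural-like cells, the neighbours of endothelial cells in the vessel wall, had 47.1 and 25.6. The 33 perineurial-like control cells had 1012 (867 to 1174).

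The study sets SSPC-1 against SSPC-2, and the first comparison asked how the members differ between them. In the control library 9 of the 10 members (7 higher in SSPC-1-like cells, 2 lower), and in the fl/fl library 8 of 10 (6 higher and 2 lower), were at least 2-fold apart, counted among genes with at least 20 UMIs in the pair of types. The background share at least 2-fold apart over all tested genes was 21.1% of 11291 in the control library and 16.2% of 10773 in the fl/fl library. Taken as SSPC-1-like divided by SSPC-2-like level, the log2 ratio had a median of 1.55 over the members and 0.24 over all tested genes in the control library, and 1.18 and 0.11 in the fl/fl library.

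**Figure D3:**
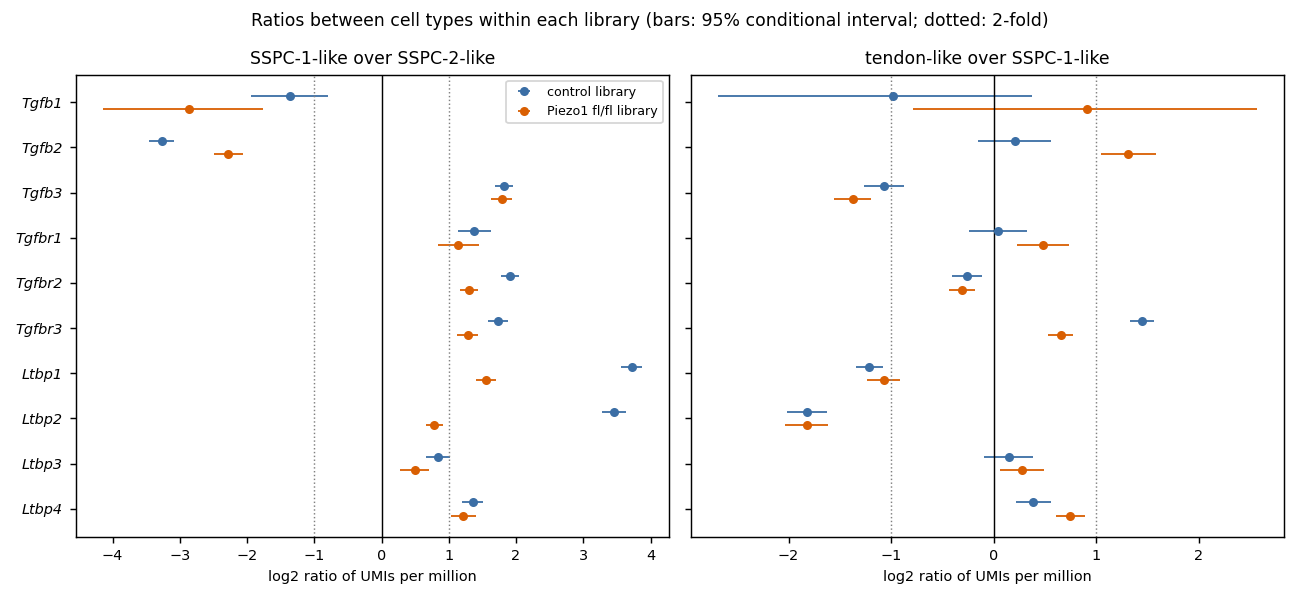
log2 ratio of CPM for each member, SSPC-1-like divided by SSPC-2-like (left) and tendon-like divided by SSPC-1-like (right), with the control library in blue, the Piezo1 fl/fl library in orange, bars for 95% exact conditional intervals and dotted lines at 2-fold. Tgfb1 and Tgfb2 lie left of 0 and the other 8 members right of 0 in the left panel, in both libraries.

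Tgfb1 and Tgfb2 were the members that were lower in SSPC-1-like cells. For Tgfb2 the log2 ratio was -3.27 (-3.45 to -3.09) in the control library and -2.28 (-2.50 to -2.07) in the fl/fl library. That of Tgfb1 was -1.36 (-1.95 to -0.80) and -2.86 (-4.15 to -1.77), on few UMIs. Tgfb3 went the other way, at 1.82 (1.69 to 1.96) and 1.79 (1.63 to 1.95). All 3 receptors were higher in SSPC-1-like cells: Tgfbr2 by 1.91 and 1.30, Tgfbr3 by 1.73 and 1.28, and Tgfbr1 by 1.38 and 1.14 on the log2 scale. The widest gaps in the control library were those of Ltbp1, at 3.72 (3.57 to 3.87), and Ltbp2, at 3.45 (3.28 to 3.63). In the fl/fl library they were 1.54 (1.40 to 1.69) and 0.78 (0.66 to 0.91). Both fl/fl values depended on the 173-cell cluster. Against the 386 other fl/fl SSPC-2-like cells the ratios were 2.75 (2.51 to 3.00) for Ltbp1 and 1.52 (1.36 to 1.69) for Ltbp2, and against the 173 cells they were 0.16 (-0.02 to 0.33) and -0.31 (-0.47 to -0.16). The Tgfb2 ratio was -2.59 against the 386 cells and -0.56 against the 173, and that of Tgfb3 2.50 and 0.70. Ltbp4 was higher by 1.35 and 1.22, and Ltbp3 by 0.84 and 0.49, under 2-fold in both.

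Beside the members, 53 other genes of the pathway were listed by role. In the control library 22 of the 50 with enough UMIs were at least 2-fold apart in this comparison, with 13 higher and 9 lower. In the fl/fl library it was 25 of 51, 13 higher and 12 lower. Unlike the members, the list was evenly divided around 0, with 25 of 50 above 0 in the control library and 26 of 51 in the fl/fl library. Its median log2 ratio was 0.0003 in the control and 0.004 in the fl/fl library. Both lay below the medians over all tested genes, 0.24 and 0.11. The counts by role that follow took genes 2-fold apart the same way in both libraries. The share of all tested genes that met this rule was not computed, so these counts have no background beside them. Of the matrix anchors and binding proteoglycans, 9 of 10 were 2-fold apart the same way in both libraries, 5 higher (Fbn1, Fbn2, Dcn, Bgn, Fmod) and 4 lower (Fn1, Aspn, Htra1, Htra3). None of the 12 SMADs and their regulators was. Of 12 tested genes for activation of the latent complex, Lrrc32 was higher and Mmp14 and Plaur lower, and of 5 other receptors, Acvrl1 and Nrp1 were higher. Response genes were divided, with 4 of 11 higher (Ccn1, Ccn2, Ldlrad4, Col4a1) and Cdkn2b among those that were lower.

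The fibrillins that anchor the latent complex followed Ltbp1 and Ltbp2. Fbn1 had 982 and 742 CPM in SSPC-1-like cells against 71.3 and 149 in SSPC-2-like cells, log2 ratios of 3.78 and 2.32. Fbn2 had 24.6 and 33.5 against 1.32 and 4.70, log2 ratios of 4.21 and 2.83 that rest on few UMIs in SSPC-2-like cells. Ccn2, a connective tissue growth factor that TGF-beta induces, stood at 4719 and 6272 against 584 and 1294. The largest ratios the other way were those of the cell cycle inhibitor Cdkn2b (-3.18 and -3.10, on few UMIs), the membrane protease Mmp14 (-2.74 and -2.93), the urokinase receptor Plaur (-2.47 and -2.05) and the collagen-binding proteoglycan Aspn (-1.95 and -1.56).

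Genes that hold or release latent TGF-beta at the cell surface marked other types. Nrros, which tethers latent TGF-beta1 on macrophages and microglia, had 353 and 407 CPM in macrophage-like cells, 58.7 and 66.2 in endothelial-like cells, and at most 4.18 in the other 6 types. Lrrc32, which does the same on endothelial and regulatory T cells, was highest in mural-like cells (133 and 130.2) and endothelial-like cells (72.6 and 74.9). Itgb8, whose integrin frees latent TGF-beta, had 134 and 89.2 CPM in lining-like cells and at most 9.01 elsewhere among the 8 types. Itgav and Itgb5 were spread, with Itgav between 38.3 and 282 CPM over the 8 types and Itgb5 between 26.1 and 219. The endothelial receptors Eng (400.3 and 350.1) and Acvrl1 (193 and 209) were highest in endothelial-like cells.

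Tendon-like cells were compared with SSPC-1-like cells in the same way. Of the members, 4 of 10 in the control library and 4 of the 9 tested in the fl/fl library were at least 2-fold apart, 1 higher and 3 lower in each, against a background of 17.9% and 13.5% of all tested genes. Tgfb3, Ltbp1 and Ltbp2 were lower in tendon-like cells in both libraries, with log2 ratios of -1.07 and -1.38, -1.21 and -1.07, and -1.82 and -1.82. The member that was higher differed between the libraries. It was Tgfbr3 in the control library (1.45, interval 1.33 to 1.56), which was at 0.65 (0.53 to 0.78) in the fl/fl library. In the fl/fl library it was Tgfb2 (1.31, interval 1.05 to 1.58), which was at 0.21 (-0.16 to 0.56) in the control library. Tgfbr2 and Ltbp3 stayed within 2-fold in both. Of the other pathway genes, Tgfbi, a matrix protein named for its induction by TGF-beta, was higher (457 and 593 CPM against 69.6 and 50.1), as was Fn1 (2333 and 3308 against 1084 and 850.2). Lrrc32, the inhibitory Smad7 and the co-receptor Nrp1 were lower in both libraries.

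The genotypes were then set side by side within each type. Piezo1 itself had 132 UMIs in all kept control cells (5.18 CPM) and 69 in fl/fl cells (2.41). A 3′ tag outside the floxed part would be kept in recombined cells, so this does not check the deletion. The members at least 2-fold apart between the fl/fl and control libraries were 2 of 10 in SSPC-1-like cells, both lower in the fl/fl library (background 7.67% of tested genes), 2 of 10 in SSPC-2-like cells, 1 higher and 1 lower (7.10%), and 1 of 9 in tendon-like cells, lower (9.52%). There was none of 10 in fibroblast-like (5.04%), of 9 in mural-like (4.45%), of 8 in endothelial-like (7.89%), of 10 in lining-like (12.2%) or of 10 in macrophage-like cells (10.7%). The macrophage-like cells were led by Ctss, Lyz2 and Cd74 in the control and by Lyve1, Cbr2 and Vsig4 in the fl/fl library.

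**Figure D4:**
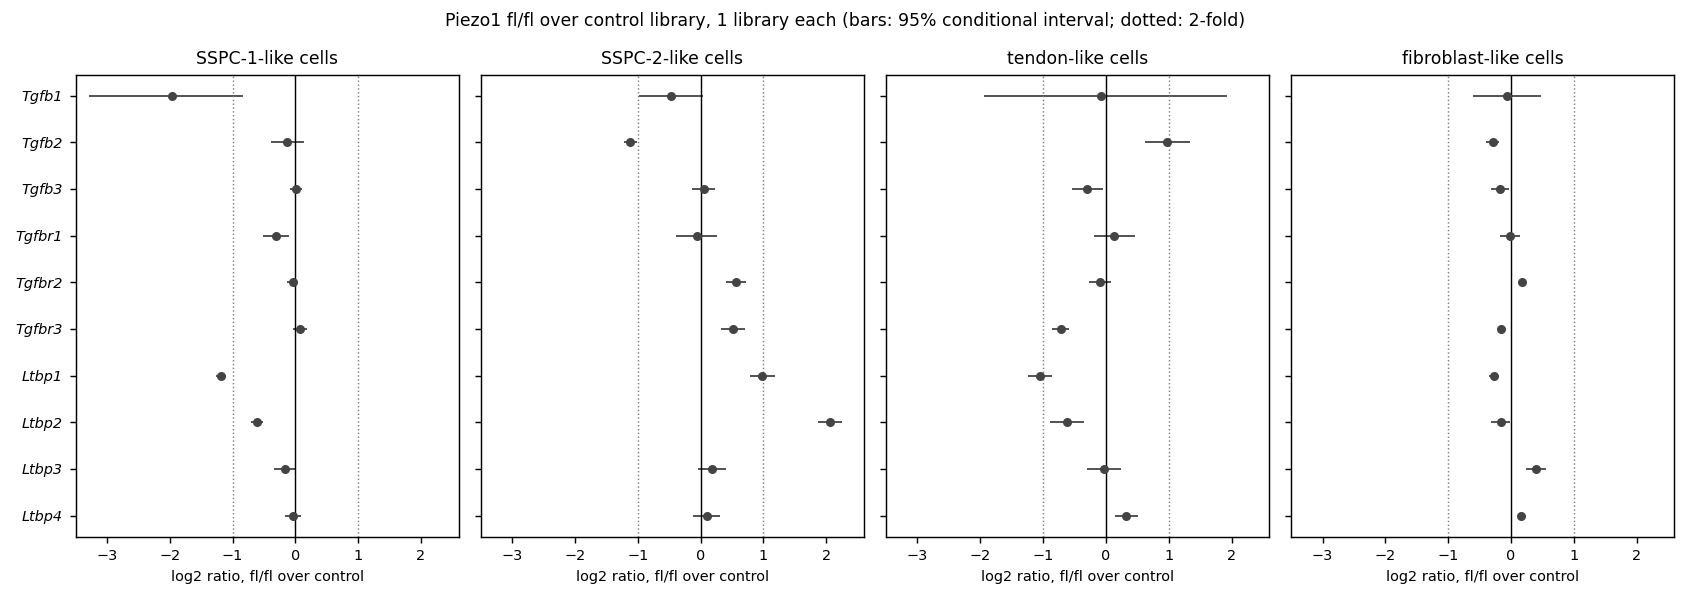
log2 ratio of CPM in the Piezo1 fl/fl over the control library for each member in SSPC-1-like, SSPC-2-like, tendon-like and fibroblast-like cells, with bars for 95% exact conditional intervals and dotted lines at 2-fold. Ltbp1 is left of the lower line in SSPC-1-like and tendon-like cells, and Ltbp2 right of the upper line in SSPC-2-like cells; the Tgfb1 ratio in tendon-like cells rests on 7 and 5 UMIs and was not counted.

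Ltbp1 was at 948 CPM in control and 416 in fl/fl SSPC-1-like cells (log2 ratio -1.19, interval -1.27 to -1.11). In tendon-like cells it was at 409 and 197 (-1.05, interval -1.25 to -0.86), a ratio that was at least 2-fold in 6 of 10 other settings and -0.24 at clustering resolution 0.2. Ltbp2 was lower by less in both (log2 ratio -0.61 in each). Tgfb1 was at 7.75 in control and 1.98 in fl/fl SSPC-1-like cells (log2 ratio -1.97, interval -3.28 to -0.84) on 36 and 8 UMIs, and the ratio ranged from -2.69 to -0.61 over 10 other settings, 8 of them at least 2-fold. Tgfb3 was at the same level in SSPC-1-like cells of both libraries (log2 ratio 0.01, interval -0.08 to 0.11), as were Tgfbr2 (-0.04, interval -0.14 to 0.05), Tgfbr3 (0.07, interval -0.04 to 0.18) and Ltbp4 (-0.04, interval -0.17 to 0.09), to within these intervals. The summed SSPC-1 markers were 8445 CPM in control and 6173 in fl/fl SSPC-1-like cells (7 of 7 with UMIs in both). The summed tendon markers were higher in the fl/fl than in the control cells (7313 against 3750.1 CPM, 6 of 6 with UMIs in both) and the summed SSPC-2 markers lower (380.4 against 2065, 9 of 9). Their part in the Ltbp1 result was not tested.

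In SSPC-2-like cells Ltbp2 was at 57.3 CPM in the control and 239 in the fl/fl library (log2 ratio 2.06, interval 1.87 to 2.25), and Ltbp1 stood at 142 against 72.1 (0.98, interval 0.79 to 1.18). The Ltbp1 value depended on which cells had the name and was -0.22 with no doublets removed, where 394 fl/fl cells were SSPC-2-like. Tgfb2 was at 578 in control and 266 in fl/fl cells (-1.12, interval -1.23 to -1.01). Tgfbr2 (0.56) and Tgfbr3 (0.52) were higher in the fl/fl library by less than 2-fold, and Tgfb3 was level (0.05, interval -0.13 to 0.23). The cells under this name were not the same mixture in both libraries. Summed SSPC-2 markers were 24568 CPM in control and 17673 in fl/fl cells (9 of 9 with UMIs in both), SSPC-1 markers 1076 and 1815 (7 of 7), tendon markers 245 and 1014 (6 of 6), and mature osteoblast markers 3402 (5 of 7, Mepe and Sost at 0) and 7363 (6 of 7, Sost at 0).

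To place these differences within the class, the SSPC-2-like cells were divided by the clusters of a finer resolution (0.8), a step added after the values were seen. Nearly all control cells were in clusters of 553 and 187 cells, and fl/fl cells into clusters of 386 and 173. The 173-cell cluster had 2775 CPM of Col8a1 and 90.8 of Egfl6, both SSPC-1 markers, no Dmp1 UMI and 212 of Ibsp. It had the least of the SSPC-2 markers Tnn (1332) and Postn (1579). The other 3 clusters had between 452 and 828 of Col8a1, 3589 and 8659 of Tnn, and 6642 and 12375 of Postn. Angptl7, the study's SSPC-1 marker, was at 130 in the 173-cell cluster and between 31.9 and 69.2 in the others. The SSPC-2-like name thus suits the 173 cells less well, and the pooled fl/fl SSPC-2-like values include them. Ibsp was at 2417 and 4280 in the control clusters of 553 and 187 cells and at 8536 in the 386-cell cluster. Dmp1 was at 3.30, 25.2 and 116 in the same order. These clusters were thus not matched in osteoblast markers, and the part of that in the values below was not tested.

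Ltbp1 was at 72.8 and 67.7 CPM in the control clusters and 61.8 in the 386-cell cluster, and at 373 (334 to 416) in the 173-cell cluster. Ltbp2 differed in both places. It was 54.6 and 65.8 in the control clusters, 143 (129 to 159) in the 386-cell fl/fl cluster and 512 (465 to 561) in the 173-cell cluster. Tgfb2 was 647 and 297 in the control clusters, 331 (309 to 354) in the 386-cell cluster and 80.5 in the 173-cell cluster. The 386-cell cluster was thus below the larger control cluster and did not differ from the smaller control cluster (265 to 332) beyond the overlap of their intervals. Tgfb3 and Tgfbr2 were highest in the 173-cell cluster, at 258 and 317. When both the cluster and the cell's own marker UMIs were required for the name, the log2 ratio of the fl/fl over the control library was 2.06 for Ltbp2, -1.07 for Tgfb2 and 0.25 for Ltbp1.

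**Figure D5:**
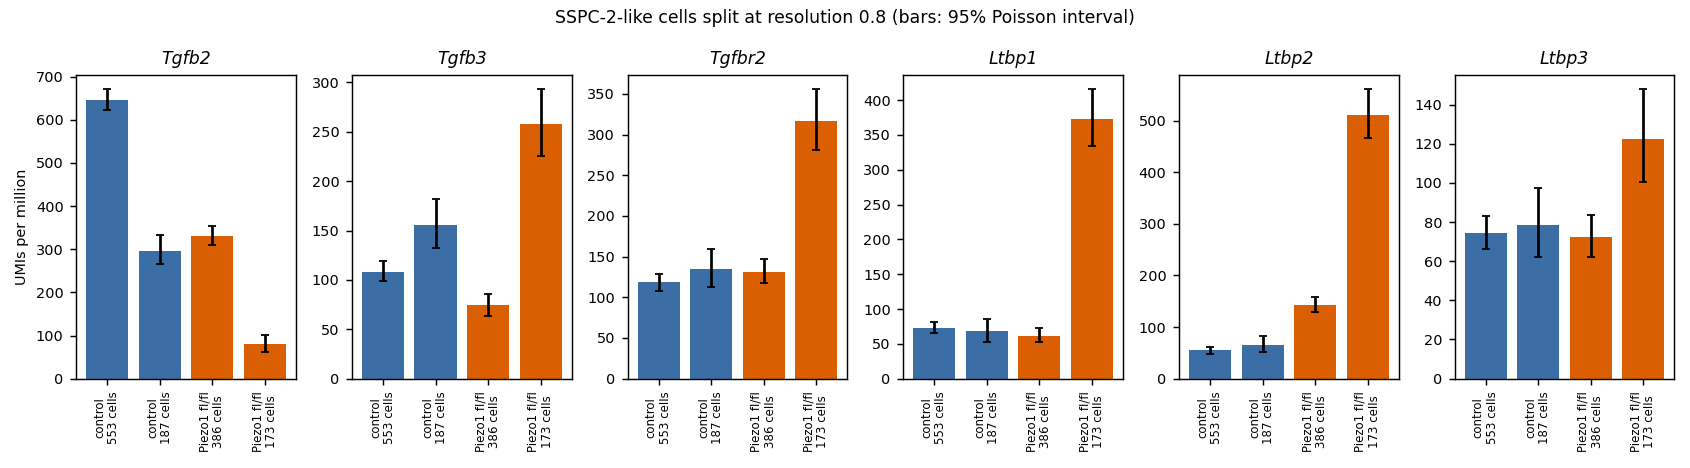
CPM of Tgfb2, Tgfb3, Tgfbr2, Ltbp1, Ltbp2 and Ltbp3 in the SSPC-2-like cells divided into clusters at resolution 0.8, with 2 clusters for the control library (blue, 553 and 187 cells) and 2 for the Piezo1 fl/fl library (orange, 386 and 173 cells) and bars for 95% Poisson intervals. The 173-cell fl/fl cluster had the lowest Tgfb2 and the highest of the other 5 genes.

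The remaining library differences were smaller. In tendon-like cells Tgfb2 was 136 against 69.0 CPM in the control (log2 ratio 0.98, interval 0.62 to 1.34) and Tgfbr3 499 against 823 (-0.72, interval -0.85 to -0.59). Fibroblast-like cells had the most UMIs and the narrowest intervals, and their 10 log2 ratios lay between -0.29 (Tgfb2) and 0.40 (Ltbp3). In mural-like cells Ltbp4 was 25.6 against 47.1 (-0.88, interval -1.49 to -0.29). The lining-like cells of the fl/fl library had more Ltbp3 (0.84, interval 0.49 to 1.20) and Ltbp1 (0.84, interval 0.29 to 1.43). In endothelial-like cells, on few UMIs, Tgfb3 was 61.0 against 30.9 (0.98, interval 0.15 to 1.85), Tgfb2 97.5 against 51.0 (0.94, interval 0.29 to 1.60) and Tgfbr3 127 against 213 (-0.75, interval -1.18 to -0.33). Their Ltbp4 was 944 against 941 (0.00, interval -0.17 to 0.17).

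Fibroblast-like cells also varied among themselves. Clusters with Pi16 and Dpp4 among their leading genes (874 control and 304 fl/fl cells) and clusters with Gdf10 and Inmt (758 and 230 cells) were told apart, the control Pi16 cluster also holding Col2a1 and Col9a1 among its leading genes, and 1285 fl/fl fibroblast-like cells belonged to neither. Ltbp2 was higher in the Pi16 cells, at 114 against 25.7 CPM in the control library and 37.7 against 10.6 in the fl/fl library, and so was Ltbp1, at 443 against 234 and 598 against 196. Ltbp4 was higher in the Gdf10 cells, at 928 against 542 and 1194 against 508, as was Tgfb3, at 116 against 65.7 and 120.2 against 38.3. Tgfbr2 was 622 against 547 in the control library (log2 ratio 0.18, interval 0.11 to 0.26) and 1342 against 393 in the fl/fl library (1.77, interval 1.64 to 1.90). At least 2-fold apart were 1 of 10 members in the control library, higher in Pi16 cells, and 7 of 9 in the fl/fl library, 5 higher and 2 lower. Over all tested genes, 559 were higher and 750 lower of 11167 in the control library, and 862 and 708 of 9260 in the fl/fl library. The Pi16 and Gdf10 cells were a smaller part of the fibroblast-like cells in the fl/fl library, so these values are not matched between libraries.

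For each member the genes with the most similar levels were sought among 5404 genes over the 16 points that the 8 types and both libraries make, as Pearson correlations of log2 levels. The points of a library share its depth and those of a type its cells, so the values are descriptions. Ltbp2 was most like Capn6 (r = 0.956), Tenm3 and Pdgfrl. Tgfb3 was most like the calcium channel gene Cacna1g (0.955), Crispld2 and Lhfp, and Lhfp was also among the 3 nearest genes to Ltbp1, after Fzd2 (0.935). Ltbp3 was most like the collagen receptor Mrc2 (0.970) and the hindlimb factor Pitx1 (0.966). The genes nearest to Ltbp4 were Cyb561, the elastic fibre gene Fbln2 (0.945) and Lysmd2. Those nearest to Tgfb1 were Gng2, Ostf1 and Bmp2k, to Tgfb2 Ptprf (0.874), Plekha5 and Trim2, to Tgfbr1 Atp6ap2, Gm2a and Txndc16, to Tgfbr2 Mgst1, Add3 and Cd47, and to Tgfbr3 Zbtb20, Tmem106b and Il17rd. Tgfb2 had the lowest first value of the 10 members.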

How the data were processed

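Deposited values are UMI counts per gene and cell barcode, 1 matrix per library. The submitters' processing notes name fastp, UMI-tools, STAR and Seurat 4.0.3 for the authors' processing; the genome build, annotation and strand setting are not given in the sources used here. Barcodes held at least 501 and 502 UMIs in the control and fl/fl library. Kept cells had between 1000 and 5000 genes and less than 25% of UMIs from mitochondrial genes, without the 46 of 5551 (control) and 67 of 6784 (fl/fl) cells that Scrublet (scanpy 1.11.5) marked. Each library was clustered on its own in Seurat 5.3.0 (2000 variable features less members and pathway genes, 20 components, resolution 0.4). A cluster was named when at least 3 markers of a class were found in at least 10% of its cells at 2 times the median level of the other clusters, with a mean log2 excess of at least 2 over the class, and no other class led its top 10 genes; these limits were set after clusters were seen. UMIs were summed per type, with exact Poisson, binomial and conditional intervals; with 1 library per genotype there is no test. The ratio step was run on simulated Poisson counts, the model that its intervals assume. This checked the calculation and cannot show how well the intervals suit these data. Pathway genes named are the 4 with the largest ratio each way that were 2-fold apart in both libraries, plus listed genes in the levels by type; some items are not reported here. The members and lists were chosen with earlier results of these data known. edgeR 4.0.16 gave the TMM factors of an alternative.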

Additional observations from a re-analysis of the deposited data

Results flagged for a closer look

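With 1 library per genotype, no group was large enough for the search for outlying samples. The difference between libraries (fl/fl over control, log2 ratio of levels in CPM) ran opposite ways in 2 cell types for 3 members, each at least 2-fold in 1 of the types; the difference between the types was not tested. Ltbp2 was at 2.06 in SSPC-2-like and -0.61 in tendon-like cells. Ltbp1 was at -1.19 in SSPC-1-like and -1.05 in tendon-like cells against 0.98 in SSPC-2-like cells. Tgfb2 was at -1.12 in SSPC-2-like and 0.98 in tendon-like cells. Over other settings the SSPC-2-like value of Tgfb2 reached -0.71 and was at least 2-fold in 9 of 12, and that of Ltbp2 in 12 of 12. Both pool unlike clusters. Tgfb2 was at 331 and 80.5 CPM in the fl/fl clusters and 647 and 297 in the control clusters. Ltbp2 was at 143 and 512 in the fl/fl clusters and 54.6 and 65.8 in the control clusters. The Ltbp1 value of SSPC-2-like cells changed sign, to -0.22, with no doublets removed. It went with the 173-cell cluster described above, and without those cells the clusters held 61.8 CPM in the fl/fl library and 72.8 and 67.7 in the control library.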

How the results depend on the processing

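Limits: each value rests on 1 library per genotype, on types rebuilt from markers and on UMI counts that for Tgfb1 were often under 50. No paired analysis was possible because each genotype has 1 library. At resolution 0.2 the fl/fl library had no SSPC-1-like cluster, so its comparisons with that type gave no value there.

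The counts for SSPC-1-like against SSPC-2-like cells (members and pathway genes) and between tendon-like and SSPC-1-like cells stayed within 1.5 times under every alternative that gave a value: 9 to 10 members in the control and 7 to 9 in the fl/fl library, 19 to 30 and 19 to 35 pathway genes, and 3 to 5 and 3 to 6 members for tendon-like cells. The 30 member ratios that were at least 2-fold in these comparisons or between libraries kept their sign in all of the alternatives run; those of Pi16 over Gdf10 cells were not recomputed. Member counts between libraries were small and moved more often. For SSPC-1-like cells the 2 became 1 with no doublets removed, with types set cell by cell from marker UMIs, after thinning and at 100 UMIs; Ltbp1 stayed between -1.26 and -1.13, and Tgfb1 ranged from -2.69 to -0.61. For SSPC-2-like cells the 2 became 1 at resolution 0.2 (Tgfb2 at -0.71) and with no doublets removed (Tgfb2 at -0.83); Ltbp2 stayed between 1.31 and 2.17. Ltbp1 in SSPC-2-like cells, under 2-fold at 0.98, was at 0.11 at resolution 0.2, 0.28 cell by cell, 0.25 when named by both cluster and marker UMIs, and -0.22 with no doublets removed. For tendon-like cells the 1 became 2 at resolution 0.8, under 10% mitochondrial UMIs and with no doublets removed, and 4 at 1.5-fold; Ltbp1 ranged from -1.35 to -0.24 and was at least 2-fold in 6 of 10. From 0, fibroblast-like cells gave 1 under 10% mitochondrial UMIs. Mural-like cells gave 1 with wider limits on genes per cell, cell by cell types, the mean of cell levels and thinning, and 2 under 10% mitochondrial UMIs and at 1.5-fold. Endothelial-like cells gave 1 with no doublets removed and at 1 UMI, 2 with the mean of cell levels and 4 at 1.5-fold. Lining-like cells gave 2 with wider limits on genes per cell, 1 cell by cell, with the mean of cell levels and thinned, and 3 at 1.5-fold. Macrophage-like cells gave 1 with wider limits on genes per cell, with no doublets removed and thinned, and 2 at 1.5-fold. The cause was not tested. TMM factors shifted log2 ratios by -0.25 for SSPC-1-like against SSPC-2-like control cells and by 0.15 between tendon-like and SSPC-1-like cells. Dividing the SSPC-2-like cells at resolution 0.8, naming them by both cluster and marker UMIs, and taking macrophage-like cells by marker UMIs were chosen after seeing the data.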

Other observations

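The small clusters left out of the comparisons held members too. The 27 chondrocyte-like cells of the fl/fl library had 312 CPM of Ltbp1 (77 UMIs, interval 247 to 391), 256 of Ltbp2 (63 UMIs), 162 of Tgfb2 (40 UMIs) and 20.3 of Ltbp4 (5 UMIs). An unnamed fl/fl cluster of 300 cells led by Cfd and Adipoq had 526 of Ltbp1 (495 to 559), 566 of Tgfbr3 and 488 of Tgfbr2, but 10.2 of Ltbp2 (20 UMIs). The mature osteoblast-like control cells had 131 of Ltbp1 (102 to 166) and 38.8 of Ltbp4. The unnamed 144-cell fl/fl cluster had 192 of Tgfbr1 (165 to 223), above the 83.3 of the fl/fl macrophage-like cells.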
